A study of Mus musculus with 12 samples.

Results

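The 7 genes described here, which move calcium through epithelial and muscle cells, were followed over the estrous cycle in the mouse uterus: the calcium entry channel Trpv6, the cytosolic calcium binding proteins S100g and Calb1, the plasma membrane export pumps Atp2b1 and Atp2b4, the sodium-calcium exchanger Slc8a1 and the store pump Atp2a2. They were chosen by symbol, and all 7 of 7 were found among the 35896 genes into which the deposited transcripts were summed. The samples were 12 whole uteri of wild-type Swiss Webster females, an outbred stock, 8 to 12 weeks old and untreated as far as the labels say, with 3 uteri each in proestrus (replicates 1, 2 and 3), estrus (3, 4 and 5), metestrus (5, 6 and 7) and diestrus (3, 4 and 5). Polyadenylated RNA was read by 3' TagSeq, a method whose reads fall close to where transcripts end. The labels did not say how a stage was determined or that the samples were processed apart, so p-values measure the spread between these samples. In whole tissue, fewer cells of a type and less RNA per cell cannot be told apart.

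Epithelia carry calcium in 3 steps. It enters through TRPV channels, is buffered and ferried by calbindins (S100g encodes calbindin-D9k and Calb1 calbindin-D28k), and leaves through the plasma membrane calcium ATPases and the sodium-calcium exchanger, while the SERCA pump encoded by Atp2a2 loads the endoplasmic reticulum. In the uterus, Trpv6 and S100g are known as targets of estrogen and progesterone in the epithelium, and the pumps and the exchanger also serve the contracting smooth muscle. In the mouse, circulating estrogen peaks in proestrus, and progesterone acts mainly from metestrus into diestrus.

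The libraries held 1652841 to 2200563 estimated counts, and a count of 3, the most that a listed 0 leaves room for, stood for 1.37 to 1.83 CPM (counts scaled to a common library size). These limits, like the intervals below, cover counting error only, since no molecular identifiers were described. All 7 genes passed the filter on low counts, which left 12052 genes for testing. Markers of the expected tissue layers were present in every library: the summed level of 10 smooth muscle markers lay between 6171 and 12310 CPM, that of 10 stromal markers between 7561 and 16520 CPM, and that of 12 epithelial markers between 806 and 2968 CPM.

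Over the 4 stages, 2 of the 7 genes differed (Trpv6 and Slc8a1), at an adjusted p under 0.05 by Benjamini-Hochberg in the quasi-likelihood test of edgeR, in a background of 23.2% of all genes tested. From proestrus through to diestrus, Trpv6 was the only one called between successive stages: it rose from proestrus to estrus, where 17.1% of all genes were called, fell from estrus to metestrus (7.56%) and fell again from metestrus to diestrus (0.224%). Between diestrus and the following proestrus, 2 of 7 were called, Trpv6 higher and Slc8a1 lower in proestrus (8.53%). Trpv6 alone was called between estrus and diestrus (22.8%). None of the 7 was called between metestrus and proestrus (4.31%), where edgeR gave S100g and Slc8a1 an unadjusted p under 0.05 and DESeq2 called both of these 2 genes. The median log2 fold change of the 7 genes lay between -0.25 and 0.35 in the 6 contrasts.

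**Figure D1:**
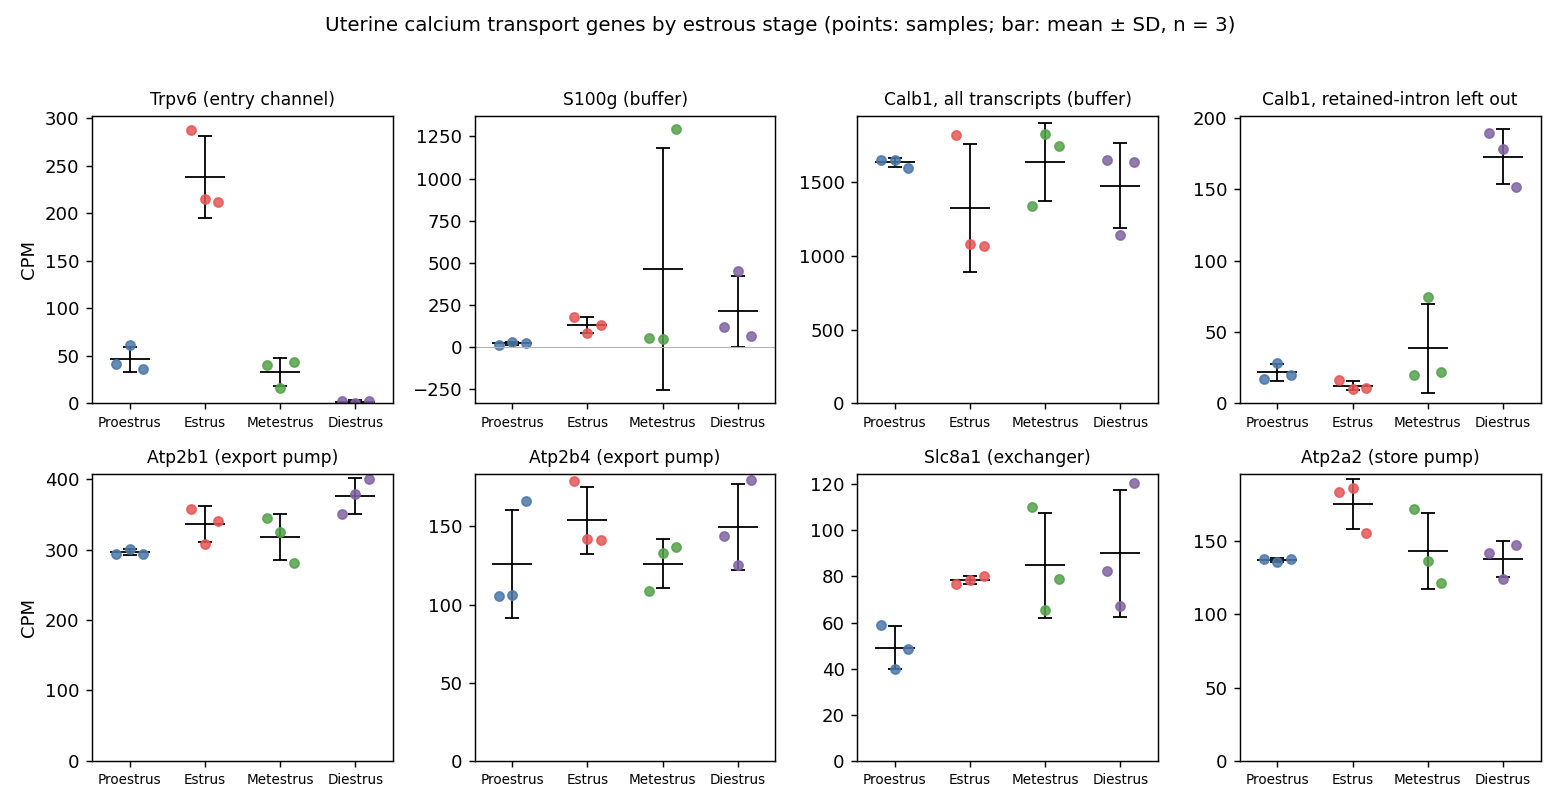
CPM of each gene (vertical axes, each panel on its own scale) in the 12 uteri by stage, with points for single samples and bars for the mean ± SD of 3 samples. Calb1 has 2 panels, with all its transcripts and with retained-intron transcripts left out. Trpv6 stands highest in the 3 estrus samples (212 to 288 CPM) and near 0 in diestrus, Calb1 without retained-intron transcripts stands highest in the 3 diestrus samples (152 to 189 CPM), and 1 metestrus sample (1294 CPM) sets the S100g mean of its stage.

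Trpv6 (ENSMUSG00000029868, chromosome 6, 41620624 to 41636405 on the minus strand, GRCm38), the rate-limiting entry channel of epithelial calcium transport, had a sharp peak in estrus. Its levels were 41.1, 61.5 and 36.0 CPM in proestrus replicates 1, 2 and 3, and 288, 216 and 212 CPM in estrus replicates 3, 4 and 5. In metestrus replicates 5, 6 and 7 they were 39.9, 16.4 and 43.5 CPM, and in diestrus replicates 3, 4 and 5 they were 2.49, 0 and 2.83 CPM. Every estrus sample stood above every sample of the other stages and every diestrus sample below every other sample, while proestrus and metestrus overlapped. The 3 diestrus libraries held 5, 0 and 5 Trpv6 counts, which pooled gave 1.73 CPM (95% exact Clopper-Pearson interval 0.827 to 3.17).

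Trpv6 rose 5.17-fold from proestrus to estrus (46.2 ± 13.5 to 239 ± 43.0 CPM, SD, n = 3 each; edgeR log2 fold change 2.37 ± 0.33 SE, Benjamini-Hochberg adjusted p = 0.000646). It then fell by 2.83 ± 0.34 SE on the log2 scale into metestrus (33.3 ± 14.7 CPM; edgeR adjusted p = 0.000418) and fell by 4.22 ± 0.55 SE into diestrus (1.77 ± 1.55 CPM; edgeR adjusted p = 0.0111). Proestrus stood 4.68 ± 0.53 SE above diestrus on the same scale (edgeR adjusted p = 0.000202), and diestrus against estrus had a log2 fold change of -7.05 ± 0.49 SE (edgeR adjusted p = 3.08e-06). Between metestrus and proestrus the log2 fold change was -0.46 ± 0.35 SE (edgeR adjusted p = 0.489). The order of the levels was thus estrus, then proestrus and metestrus, which did not differ beyond their spread, then diestrus. The call between metestrus and diestrus was lost when the model was fitted to those 6 samples alone (edgeR adjusted p = 0.226), and the other Trpv6 calls held in all alternatives.

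Epithelial marker RNA followed the course of Trpv6 only in part. The 12 epithelial markers summed to 2227 to 2968 CPM in proestrus and 2154 to 2643 CPM in estrus, 2 ranges that overlap while the Trpv6 ranges do not. In metestrus they summed to 806 to 1521 CPM and in diestrus to 813 to 998 CPM, again overlapping ranges between which Trpv6 fell. All 12 markers were called over the stages, and none was at 0 in any stage. The lower epithelial sum in metestrus and diestrus moved with lower Trpv6, and its part in that difference was not tested.

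**Figure D2:**
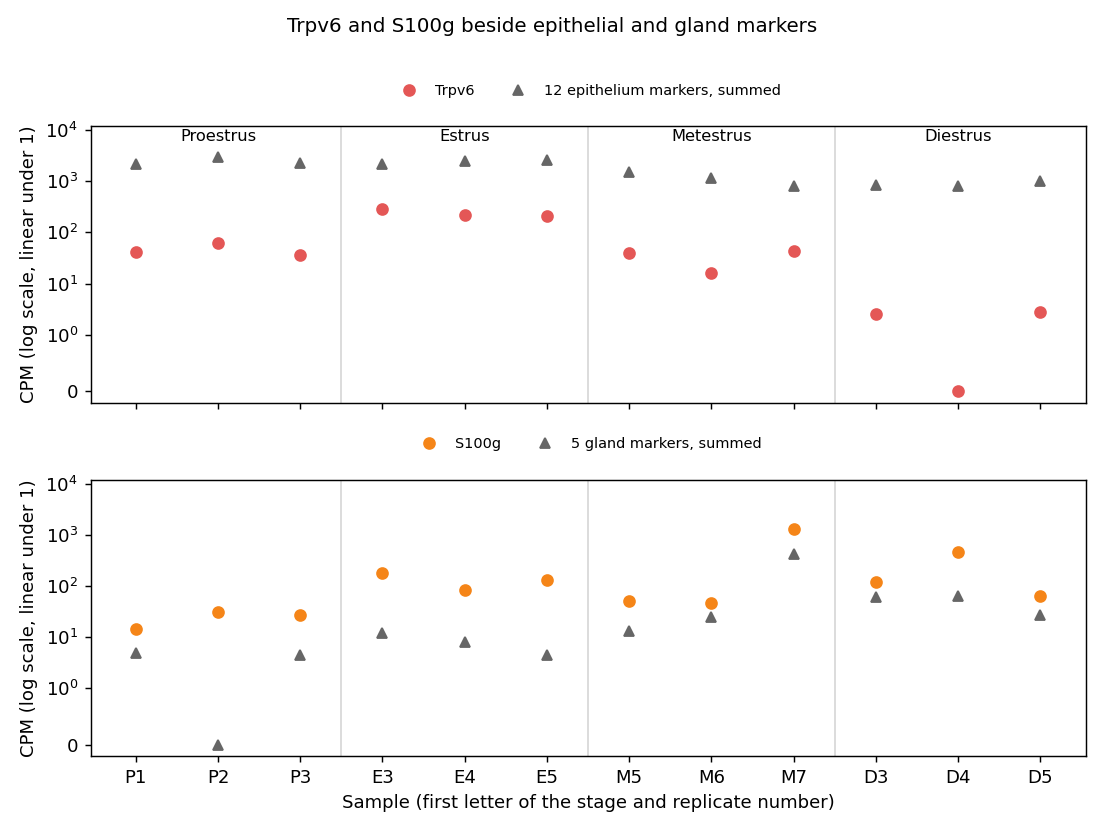
CPM of Trpv6 with the summed CPM of 12 epithelial markers (upper panel) and of S100g with the summed CPM of 5 gland markers (lower panel) in each of the 12 uteri, on a log axis that is linear under 1, the marker sums with retained-intron transcripts left out. The epithelial sum is alike in proestrus and estrus, where Trpv6 differs, and the gland sum is highest (416 CPM) in metestrus replicate 7, the library with the highest S100g.

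The promoters of the 2 genes called over the stages, Trpv6 and Slc8a1, are shown because their RNA moved with the cycle. Each is the 250 bases before the RefSeq transcription start on GRCm38.p6, read 5′ to 3′ on the minus strand, at chr6:41636406-41636655 and chr17:81738388-81738637. Capitals mark matches to the 5-base core of the estrogen response element, GGTCA or TGACC on the other strand.
Trpv6: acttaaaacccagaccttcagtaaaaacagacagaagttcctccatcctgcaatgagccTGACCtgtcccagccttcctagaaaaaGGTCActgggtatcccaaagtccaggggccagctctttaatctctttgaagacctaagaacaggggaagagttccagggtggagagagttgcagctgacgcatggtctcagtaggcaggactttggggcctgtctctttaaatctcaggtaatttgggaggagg
Slc8a1: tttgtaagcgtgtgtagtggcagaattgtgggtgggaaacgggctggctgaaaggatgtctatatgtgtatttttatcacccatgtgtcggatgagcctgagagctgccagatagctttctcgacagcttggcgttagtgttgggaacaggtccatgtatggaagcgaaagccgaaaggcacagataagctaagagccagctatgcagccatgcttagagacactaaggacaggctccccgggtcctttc
The Trpv6 window held 2 such cores, starting at bases 60 and 87 counted from its 5′ end, and the Slc8a1 window none. The core is common: 35.2% of the 32851 RefSeq promoters of this length held at least 1 on either strand. The S100g window also held 2 cores, and those of Atp2b1 and Atp2b4 none. The Slc8a1 window lies before the start of ENSMUST00000235015 (81738377), with 36.4% of Slc8a1 counts. ENSMUST00000234131, with 63.5%, starts at 81649608. The Atp2b4 window lies before a start at 133753747, while ENSMUST00000143567, with 85.0% of Atp2b4 counts, starts at 133801041. For Slc8a1 and Atp2b4 the windows thus do not cover the bases before the annotated start of the transcript with the most counts. Reads near transcript ends do not show which start was used. No member's window held the full estrogen response element, which contains the core on both strands (0.0639% of all promoters), the progesterone and glucocorticoid receptor element (0.387%) or TATAAA (12.4%). Of the 7 genes, 5 matched the promoter table by symbol, all but Calb1 and Atp2a2.

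The genes whose log2 CPM ran most like that of Trpv6 over the 12 samples, among 9440 genes with a mean of at least 10 CPM, were Met (Pearson r = 0.974), the hepatocyte growth factor receptor, the phosphatase gene Ptp4a2 (0.969), Mycn (0.961), a transcription factor of the MYC family, the serine protease gene Tmprss4 (0.957) and Myo1d (0.955), an unconventional myosin. These correlations describe the 12 libraries, which share the 4 stages.

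S100g (ENSMUSG00000040808, chromosome X, 162961992 to 162964599 on the minus strand), the small cytosolic calcium carrier, was lowest in proestrus and most variable in metestrus and diestrus. Its levels were 14.3, 30.2 and 26.4 CPM in proestrus replicates 1, 2 and 3 and 177, 83.5 and 131 CPM in estrus replicates 3, 4 and 5. Metestrus replicates 5, 6 and 7 gave 51.3, 46.1 and 1294 CPM, and diestrus replicates 3, 4 and 5 gave 119, 452 and 63.4 CPM. All 3 proestrus samples stood below all 9 others, and the other 3 stages overlapped.

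Estrus stood 5.52-fold above proestrus in S100g (130 ± 46.7 against 23.6 ± 8.32 CPM, SD, n = 3 each), with a log2 fold change of 2.45 ± 1.12 SE that did not pass (edgeR adjusted p = 0.151). Against proestrus, metestrus had a log2 fold change of 4.29 ± 1.16 SE (edgeR adjusted p = 0.0538), and proestrus against diestrus one of -3.16 ± 1.13 SE (edgeR adjusted p = 0.109). The F test over the stages gave an adjusted p of 0.0625 in edgeR, 0.0478 in DESeq2 and 0.000155 in edgeR with no filter on low counts.

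The calls of S100g depended on single libraries. Without metestrus replicate 7 the gene was called over the stages (edgeR adjusted p = 0.00619), as it was without metestrus replicate 5 (0.0146), metestrus replicate 6 (0.0171) or diestrus replicate 4 (0.0459). Without metestrus replicate 7 it was also called higher in estrus than in proestrus (log2 fold change 2.43, edgeR adjusted p = 0.0129) and lower in proestrus than in diestrus (-3.16, edgeR adjusted p = 0.00398). Metestrus against proestrus then had a log2 fold change of 1.05 (edgeR adjusted p = 0.489), while without metestrus replicate 5 or 6 that contrast was called (4.81 and 4.82, edgeR adjusted p = 0.0187 and 0.0130). Without metestrus replicate 5, proestrus against diestrus was called as well (edgeR adjusted p = 0.0496), and without diestrus replicate 4, metestrus against proestrus (edgeR adjusted p = 0.0495).

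Markers of the uterine glands were read in the same samples with retained-intron transcripts left out. The 5 gland markers summed to 416 CPM in metestrus replicate 7, against 13.4 and 25.1 CPM in the other metestrus samples, 27.4 to 64.5 CPM in diestrus, 4.46 to 12.1 CPM in estrus and 0 to 4.93 CPM in proestrus. The genes behind that sum are named after their values were seen. In metestrus replicate 7 the serine protease genes Prss29 (319 CPM) and Prss28 (83.3 CPM) made up nearly all of that sum, while Foxa2, the transcription factor that defines the glands, stood at 5.13 CPM there, against 7.80 and 6.11 CPM in metestrus replicates 5 and 6. Cxcl15 and Prss28 were at 0 in all proestrus samples, and Prss28 also in all estrus and all diestrus samples. The 6 endothelial markers moved with S100g only in part: their sum lay between 131 and 146 CPM in proestrus, between 157 and 172 in estrus and between 171 and 248 in diestrus, and was 127, 247 and 354 CPM in metestrus replicates 5, 6 and 7. Metestrus replicate 7 and diestrus replicate 4, the highest in S100g, were also the highest in this sum, with metestrus replicate 6 close behind at an S100g level of 46.1 CPM, and none of the 6 markers was called over the stages by edgeR. The part of gland or endothelial RNA in the S100g values was not tested. S100g lies within the gene Ctps2 on the opposite strand and shares no exon base with it, and its counting came from 1 transcript. The genes most like S100g over the 12 samples were Efemp1 (Pearson r = 0.929), an extracellular matrix gene, Itpr2 (0.921), a calcium release channel of the endoplasmic reticulum, the endothelial gene Emcn (0.920), Aldh6a1 (0.916) and Fli1 (0.912). Emcn is also among the 6 endothelial markers, so its likeness to S100g and that of their sum are not separate.

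Calb1 (ENSMUSG00000028222, chromosome 4, 15881264 to 15908064 on the plus strand), the large calbindin, gave 2 different answers depending on which of its transcripts were counted. Summed over its 3 transcripts, it lay between 1066 and 1826 CPM in every stage, all stages overlapped, and it was not called (edgeR F test, adjusted p = 0.592). Of these counts 96.1% were assigned to 1 transcript of the retained-intron type (ENSMUST00000141336), with 85.6% to 99.2% in single samples. The protein-coding transcript (ENSMUST00000029876) held the rest but for a trace, and its course was different.

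The stretch of the retained-intron transcript shown here sets it apart from the coding transcript. It runs from base 401 to base 472 of the 736-base transcript, at chr4:15895740-15895811 on the plus strand of GRCm38, within the intron that follows exon 5 of the 11 exons of the coding transcript. Capitals mark an unbroken run of 32 A bases.
Calb1 retained-intron transcript: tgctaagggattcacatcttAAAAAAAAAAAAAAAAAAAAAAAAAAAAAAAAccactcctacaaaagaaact
Of the deposited transcripts, 102 held a run of at least 30 A bases, and together they took 9.91% to 16.7% of the estimated counts of each library (median 14.6%). The Calb1 retained-intron transcript ranked 12 among them by mean count, and its share of their counts lay between 0.770% and 1.15% in all 12 libraries. Oligo-dT primers can start at such internal runs as well as at a poly(A) tail. The part of the run in these counts was not tested.

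With all transcripts summed, the genes most like Calb1 over the 12 samples were Wtap (Pearson r = 0.969), AW822252 (0.957), Gm19087 (0.954), Fhl3 (0.948) and Paip1 (0.948). The main transcript of AW822252 holds a run of 31 A bases and that of the pseudogene Gm19087 one of 17, and those of Wtap, Fhl3 and Paip1 have none longer than 6.

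**Figure D3:**
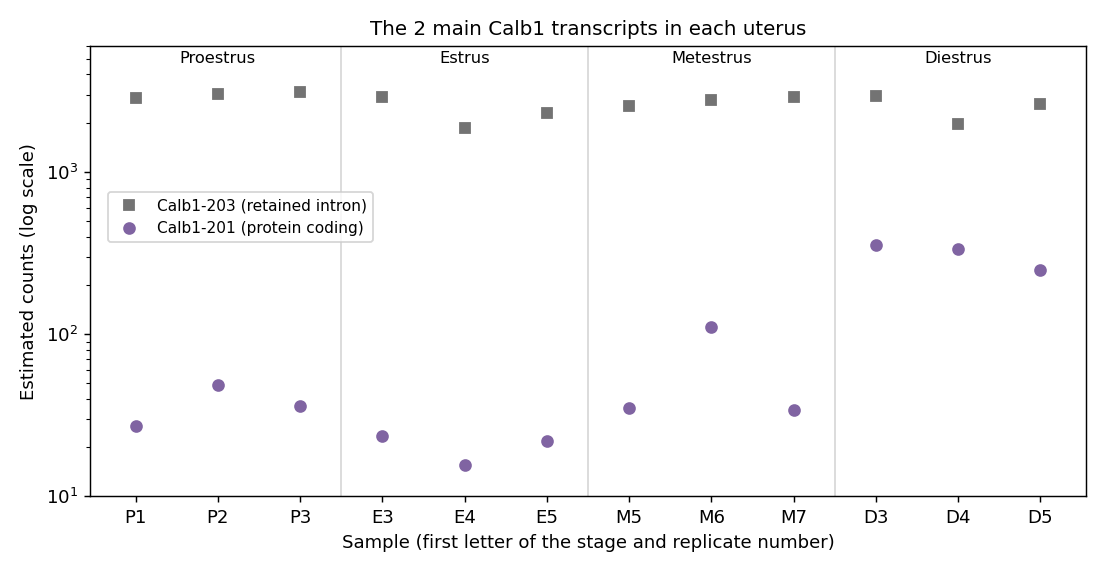
Estimated counts (log axis) of the retained-intron Calb1 transcript (squares) and the protein-coding one (circles) in each of the 12 uteri. The retained-intron transcript stays between 1871 and 3114 counts in every sample, while the coding one lies between 15.7 and 110 counts in proestrus, estrus and metestrus and between 249 and 353 counts in diestrus.

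The coding transcript was highest in diestrus. It had 27, 48.6 and 36 estimated counts in proestrus replicates 1, 2 and 3, and 23.5, 15.7 and 22 in estrus replicates 3, 4 and 5. In metestrus replicates 5, 6 and 7 it had 35, 110 and 34, and in diestrus replicates 3, 4 and 5 it had 353, 334 and 249. The diestrus samples stood above all others, metestrus replicate 6 lay between them and the rest, and the estrus samples stood below all others. The retained-intron transcript had no such order, with 1871 to 2924 estimated counts in estrus and 1983 to 2957 in diestrus.

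The model was therefore fitted again with the transcripts of the retained-intron type left out for all genes, a choice made after these values were seen. It tested 11635 genes and called 21.6% of them over the stages, Calb1 and Trpv6 among the 7. Calb1 then stood at 16.6, 28.5 and 19.9 CPM in proestrus, 16.1, 9.93 and 10.9 in estrus, 19.5, 74.7 and 21.8 in metestrus and 189, 178 and 152 in diestrus, in the order of the replicate numbers. It differed over the stages (edgeR F test, adjusted p = 0.000118), and did so without any 1 of the 12 libraries (adjusted p up to 0.000899).

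Diestrus stood 14.0-fold above estrus in Calb1 (173 ± 19.3 against 12.3 ± 3.33 CPM, SD, n = 3 each; log2 fold change 3.82 ± 0.43 SE, edgeR adjusted p = 8.6e-05), in a background of 21.7% of genes. Proestrus stood at 21.7 ± 6.13 CPM, below diestrus (log2 fold change -2.99 ± 0.40 SE, edgeR adjusted p = 0.00062, background 8.08%). Both held without any 1 library. Calb1 was also higher in metestrus than in estrus (38.7 ± 31.2 CPM; log2 fold change 1.64 ± 0.46 SE, edgeR adjusted p = 0.0477, background 7.0%) and in diestrus than in metestrus (2.18 ± 0.38 SE, edgeR adjusted p = 0.0398, background 0.258%). These last calls held in only 2 of 12 fits that left out 1 library. Metestrus replicate 6, the highest in Calb1 and the lowest in Trpv6 of its stage, moved them most: without it metestrus against estrus had a log2 fold change of 0.75 (edgeR adjusted p = 0.158) and diestrus against metestrus 3.07 (edgeR adjusted p = 0.000162). The call of metestrus against estrus remained without metestrus replicates 5 (adjusted p = 0.0102) or 7 (0.0244), that of diestrus against metestrus without metestrus replicates 6 or 7 (0.0462), and each was lost without any other single library, with adjusted p of 0.0544 to 0.158 and of 0.0572 to 0.112. Estrus against proestrus, with a log2 fold change of -0.83 ± 0.48 SE, was not called (edgeR adjusted p = 0.270) except without metestrus replicate 6 (0.0347). Leaving out the 102 transcripts with long runs of A, in place of the retained-intron type, brought Calb1 past the threshold over the stages. The main retained-intron transcript of Calb1 is among those 102. Both fits thus counted nearly the same coding reads of Calb1 and are not separate tests of it.

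With retained-intron transcripts left out, Trpv6 kept its calls and the same order of stages, so that in diestrus, where Trpv6 was lowest, Calb1 was highest. The genes most like Calb1 in that fit, among 9182 genes, were Arap1 (Pearson r = 0.985), Qtrt2 (0.955), Cox6c (0.943), Fndc4 (0.940) and Kctd17 (0.939).

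The export pumps Atp2b1 and Atp2b4 were not called in any comparison, and the exchanger Slc8a1 was. Atp2b1 (ENSMUSG00000019943, chromosome 10, 98914406 to 99026143 on the plus strand), the most widespread calcium ATPase of that membrane, stood at 294, 301 and 293 CPM in proestrus, 358, 308 and 341 in estrus, 345, 325 and 281 in metestrus and 350, 379 and 401 in diestrus. Diestrus samples stood above all proestrus and metestrus samples, and the gene was not called over the stages (edgeR adjusted p = 0.178). Atp2b4 (ENSMUSG00000026463, chromosome 1, 133699457 to 133801041 on the minus strand), the isoform of smooth muscle and sperm among other sites, stood at 106, 106 and 166 CPM in proestrus, 179, 142 and 141 in estrus, 108, 133 and 137 in metestrus and 144, 125 and 179 in diestrus. Its proestrus samples overlapped those of every other stage (edgeR adjusted p = 0.480). Coefficients of variation within stages reached 10.3% for Atp2b1 and 27.6% for Atp2b4.

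Slc8a1 (ENSMUSG00000054640, chromosome 17, 81373105 to 81738377 on the minus strand), the sodium-calcium exchanger of excitable and muscle cells, was lowest in proestrus. It stood at 58.8, 39.9 and 48.7 CPM in proestrus, 76.7, 78.4 and 80.1 in estrus, 110, 65.6 and 78.7 in metestrus and 82.3, 67.2 and 121 in diestrus. All 3 proestrus samples lay below all 9 others, and the other stages overlapped. The gene differed over the stages (edgeR F test, adjusted p = 0.0466), and proestrus stood below diestrus (49.1 ± 9.44 against 90.0 ± 27.5 CPM, SD, n = 3 each; log2 fold change -0.87 ± 0.23 SE, edgeR adjusted p = 0.0318). Estrus and metestrus against proestrus had log2 fold changes of 0.68 ± 0.23 SE and 0.79 ± 0.23 SE that did not pass (edgeR adjusted p = 0.0606 and 0.0712).

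These calls of Slc8a1 lay close to the threshold. The call over the stages was lost without any 1 of proestrus replicates 1, 2 and 3, estrus replicates 3, 4 and 5, or diestrus replicates 3 and 5 (edgeR adjusted p 0.0519 to 0.190, the highest without proestrus replicate 2), and with library totals or without retained-intron transcripts (0.0660 and 0.0540) or those with long runs of A (0.0514). The call of proestrus against diestrus was lost without proestrus replicates 2 or 3, estrus replicate 5, or diestrus replicates 3 or 5 (0.0505 to 0.148). In turn, estrus against proestrus was called without metestrus replicate 5 (0.0342) or diestrus replicate 5 (0.0392), and metestrus against proestrus without metestrus replicate 6 (0.0275). The 10 smooth muscle markers summed to 7050 to 10060 CPM in proestrus, 9566 to 12310 CPM in estrus, 6171 to 8493 CPM in metestrus and 7077 to 7478 CPM in diestrus, and 6 of the 10 were called over the stages. Their sum thus had its highest mean in estrus, with a range that overlapped that of proestrus. The part of these markers in the Slc8a1 values was not tested.

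Atp2a2 (ENSMUSG00000029467, chromosome 5, 122453513 to 122502225 on the minus strand), which encodes the calcium pump of the endoplasmic and sarcoplasmic reticulum, stood at 138, 136 and 138 CPM in proestrus, 184, 187 and 156 in estrus, 172, 136 and 122 in metestrus and 142, 124 and 147 in diestrus. The 3 estrus samples lay above all proestrus and diestrus samples, and the gene was not called over the stages (edgeR adjusted p = 0.179). The smooth muscle sum given above was also higher in all estrus than in all diestrus samples. Its estrus and proestrus ranges overlapped (9566 to 12310 and 7050 to 10060 CPM), while those of Atp2a2 did not. The part of smooth muscle RNA in the Atp2a2 values was not tested. Of the Atp2a2 counts 98.9% were assigned to a transcript annotated as subject to nonsense-mediated decay (ENSMUST00000179939), whose 3′ end at 122453513 lies beside that of the coding transcript ENSMUST00000177974 at 122453514.

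The 3' tags also gave the shares of transcripts with different ends. In Atp2b1, Atp2b4 and Slc8a1, 2 transcripts each held at least 5% of the gene's counts, and none of the 6 shares differed over the stages after adjustment (exact permutation test of the F statistic, Benjamini-Hochberg adjusted over 6 shares). The lowest p was that of the Atp2b4 transcript ENSMUST00000167348, with 12.0% of Atp2b4 counts in estrus and 3.05% in diestrus (exact permutation p = 0.0286, adjusted p = 0.171). Slc8a1 counts were divided between ENSMUST00000234131 (63.5%) and ENSMUST00000235015 (36.4%).

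Of genes that ran like these members over the 12 samples, the nearest were Ift74 (Pearson r = 0.897), Crnkl1 (0.885) and Smoc2 (0.871) for Atp2b1, and Tspan2 (0.844), Fn1 (0.829) and Pde4a (0.823) for Atp2b4. For Slc8a1 they were the macrophage gene Mpeg1 (0.945), Cpe (0.938) and Ier5 (0.922), and for Atp2a2 Cog7 (0.930), Riok3 (0.924) and Slc51a (0.924). The 8 leukocyte markers summed to 160 to 184 CPM in proestrus, 442 to 582 in estrus, 260 to 513 in metestrus and 255 to 438 in diestrus, so that proestrus was lowest in them as it was in Slc8a1, and of 6 tested 3 were called over the stages. Nkg7 was at 0 in estrus. Their part in the Slc8a1 values was not tested.

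The wider calcium handling machinery was read from 6 lists of 92 other genes, of which 66 passed the filter on low counts and 26 were called over the stages (39.4%, against 23.2% of all genes tested, the background also for each list below). The lists were chosen with earlier results of these data known, so their higher share is not a test of the lists. The highest mean lay in proestrus for 9 of the 26, in estrus for 9, in metestrus for 2 and in diestrus for 6. Among all 2793 genes called, estrus held the highest mean for 46.8%. From estrus to diestrus, 7 list genes rose and 16 fell (34.8% called, against 22.8% of all 12052 genes, of which 1172 rose and 1572 fell), with a median log2 fold change of -0.11 over the 66, against 0.00065 over all genes tested. Values below are CPM as mean ± SD of 3 samples in the order proestrus, estrus, metestrus and diestrus, with edgeR F tests adjusted by Benjamini-Hochberg over all genes.

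Of 20 tested genes for calcium entry channels and their partners, 7 were called over the stages. Stim2, a sensor of the calcium store that opens Orai channels, measured 51.3 ± 4.38, 66.2 ± 12.5, 42.8 ± 2.18 and 29.8 ± 3.88 (adjusted p = 0.00161), and fell from estrus to diestrus in every alternative (log2 fold change -1.16). The T-type channel Cacna1g had its lowest mean in estrus (17.9 ± 3.67, 5.98 ± 1.42, 8.74 ± 2.43 and 16.2 ± 7.69, adjusted p = 0.0212). The store-operated channel Orai3 had its lowest mean in proestrus (34.4 ± 4.87, 46.1 ± 3.58, 53.1 ± 10.3 and 55.2 ± 0.572, adjusted p = 0.0271), and the calcium-activated cation channel Trpm4 its highest in estrus (15.3 ± 3.42, 23.7 ± 5.87, 13.2 ± 2.69 and 10.3 ± 2.54, adjusted p = 0.0290). Single libraries ended the calls of these last 3: Cacna1g without proestrus replicate 3 or estrus replicates 4 or 5 (adjusted p up to 0.0656), Orai3 without proestrus replicates 2 or 3 or diestrus replicates 3 or 5 (up to 0.120), and Trpm4 without estrus replicates 4 or 5 or diestrus replicates 3 or 4 (up to 0.151) and also without retained-intron transcripts (0.0778).

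Of 3 other tested export genes, 1 was called: Atp2b2, another plasma membrane pump, with its highest mean in proestrus (43.2 ± 12.97, 23.6 ± 2.63, 20.4 ± 9.12 and 27.5 ± 1.62, adjusted p = 0.0431). Of 9 tested store genes, 3 were called. Itpr3, an IP3-gated release channel of epithelia, was highest in estrus and lowest in diestrus, as Trpv6 was (15.9 ± 3.73, 30.9 ± 5.40, 11.2 ± 3.42 and 6.19 ± 0.697, adjusted p = 0.000428), and fell from estrus to metestrus and from estrus to diestrus in every alternative (log2 fold changes -1.47 and -2.31). The secretory pathway pumps Atp2c2 (9.29 ± 8.36, 11.7 ± 4.28, 1.21 ± 2.10 and 1.87 ± 0.687, adjusted p = 0.0292) and Atp2c1 (75.6 ± 2.54, 72.5 ± 4.63, 67.0 ± 3.93 and 54.6 ± 4.38, adjusted p = 0.0427) had lower means in diestrus than in estrus. Atp2c1 shares 19.0% of its exon bases with Aste1 on the opposite strand, and whether counting used strand was not given in the sources used here.

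The calls of these 3 genes over the stages rested on single libraries. Atp2b2 lost it without any 1 of 9 libraries, all but proestrus replicate 3 and metestrus replicates 5 and 7 (adjusted p up to 0.210, without proestrus replicate 2) and with library totals (0.0523). Atp2c1 lost it without any 1 proestrus, estrus or diestrus library (up to 0.162), and also under DESeq2 (0.113), library totals (0.129) or no filter on low counts (0.219). Atp2c2 lost it without estrus replicates 3 or 5 or any 1 diestrus library (up to 0.0834).

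Of 8 mitochondrial calcium transport genes, 4 were called, and 2 of these, Mcub and Slc8b1, were highest in estrus and lowest in diestrus as Trpv6 was. Mcub, which encodes an inhibitory subunit of the mitochondrial calcium uniporter, measured 3.38 ± 1.86, 19.0 ± 6.57, 4.63 ± 3.07 and 0.355 ± 0.309 (adjusted p = 0.000737). Its 107 counts in estrus against 2 in diestrus gave a ratio of 55.9 per library size (95% exact interval 15.1 to 467, counting error only). Slc8b1, the mitochondrial sodium-calcium exchanger, measured 9.58 ± 2.14, 17.1 ± 1.89, 8.86 ± 3.41 and 4.98 ± 0.823 (adjusted p = 0.0102). Letm1 (63.1 ± 5.76, 45.1 ± 3.29, 53.2 ± 7.95 and 67.4 ± 7.83, adjusted p = 0.0408) had its lowest mean in estrus, and Smdt1 (93.1 ± 6.73, 66.0 ± 3.83, 66.9 ± 10.9 and 69.9 ± 6.57, adjusted p = 0.0451) its highest in proestrus. Letm1 lost its call over the stages without any 1 proestrus or estrus library or diestrus replicates 3 or 5 (up to 0.120) and under DESeq2 (0.0674). Smdt1 lost it without any 1 proestrus, estrus or diestrus library (up to 0.188), and under DESeq2 (0.0585), library totals (0.0761) or no filter (0.0726). Smdt1 shares 16.6% of its exon bases with Pheta2.

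Of 12 other tested calcium binding proteins, 3 were called. The calmodulin-like gene Calml3 was highest in proestrus (8.11 ± 2.17, 1.92 ± 0.804 and 0.842 ± 1.46) and had no count in diestrus (adjusted p = 0.00593). Its 45 counts in proestrus against 0 in diestrus gave a ratio per library size with an exact lower limit of 12.2 (counting error only). S100a16 was also highest in proestrus (64.6 ± 8.90, 33.5 ± 2.44, 47.3 ± 9.66 and 41.8 ± 5.42, adjusted p = 0.00856). S100a10, the partner of annexin A2 that binds TRPV channels, was lowest in estrus and highest in diestrus (264 ± 9.37, 163 ± 16.6, 288 ± 109 and 374 ± 42.0, adjusted p = 0.0125), with a log2 fold change of 1.19 between them.

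Of 14 tested genes of calcium hormones and their signalling, 8 were called. Stc2, a secreted stanniocalcin, peaked in estrus (31.7 ± 2.65, 59.9 ± 4.69, 16.7 ± 5.06 and 11.8 ± 2.03, adjusted p = 3.23e-05). Vdr, the vitamin D receptor that drives Trpv6 and S100g in the intestine, had its lowest mean in proestrus and its highest in estrus (1.46 ± 0.714, 14.5 ± 2.54, 5.28 ± 1.08 and 4.07 ± 2.40, adjusted p = 0.00184), a log2 rise of 3.28 ± 0.50 SE (edgeR adjusted p = 0.00121). Its proestrus values (1.015 to 2.282 CPM) lay near the level of a count of 3 and overlapped those of diestrus (1.483 to 6.226 CPM). The parathyroid hormone receptor Pth1r was highest in diestrus (19.98 ± 4.45, 26.2 ± 4.63, 26.7 ± 4.76 and 53.6 ± 13.6, adjusted p = 0.00251). Calb1 was highest there with retained-intron transcripts left out, but not with all its transcripts summed. The progesterone receptor Pgr was lowest in estrus (258 ± 32.6, 76.8 ± 4.88, 196 ± 77.6 and 215 ± 79.9, adjusted p = 0.00321), where Trpv6 was highest.

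**Figure D4:**
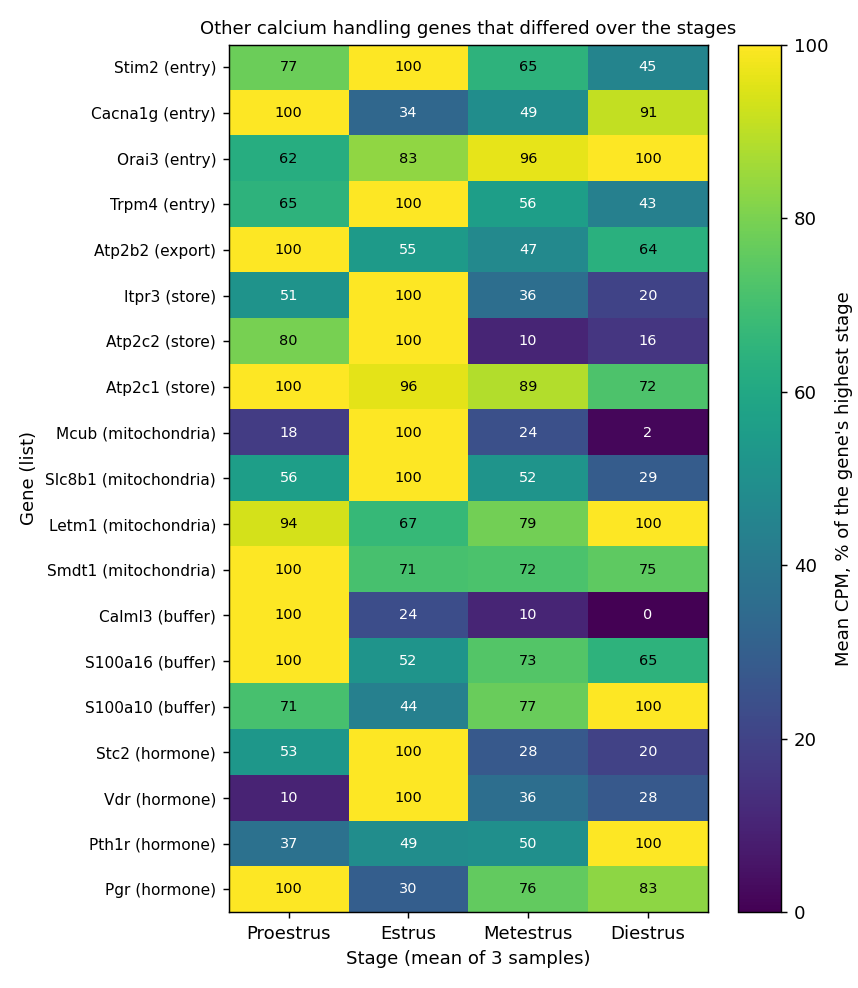
Mean CPM in each stage (columns, mean of 3 samples) as a percent of the gene's highest stage for the named genes of the 6 lists (rows), all called in the F test over the stages. Stim2, Trpm4, Itpr3, Atp2c2, Mcub, Slc8b1, Stc2 and Vdr have their highest mean in estrus, as Trpv6 does. Orai3, Letm1, S100a10 and Pth1r have theirs in diestrus.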

How the data were processed

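The authors deposited 1 table per sample with estimated counts and TPM for 119414 transcripts, units that come from the file headers. The submitters' processing notes name kallisto. The transcript set, build and use of strand were not given in the sources used here. The estimated counts, which the authors did not scale, were used here, and the deposited TPM values were not. Transcripts were matched by identifier to GENCODE M21 on GRCm38 (97.7% matched), summed per gene to 35896 genes and rounded. Genes were filtered with filterByExpr by stage, scaled with TMM factors (0.908 to 1.05) and fitted in edgeR 4.0.16 (R 4.3.3) with 1 coefficient per stage and no covariate. The 4 stages were compared in an F test and in 6 contrasts, all adjusted by Benjamini-Hochberg over 12052 genes, with 0.05 as the threshold. CPM values use the TMM factors. The fit was tested on simulated data. In estrus against proestrus it called 46 of 100 genes changed 2-fold and 89 of 100 changed 4-fold, with 1 false call. Alternatives were DESeq2 1.42.0, other scalings, no filter, single libraries left out, fits to 2 stages, and, added after the data were seen, leaving out retained-intron transcripts or those with runs of at least 30 A. All 7 genes are named in every comparison, and of each list the called genes, at most the 4 with the smallest p. The 7 genes and the lists were chosen with earlier results of these data known.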

Additional observations from a re-analysis of the deposited data

How the results depend on the processing

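The number of the 7 genes called over the stages was 2, became 1 with library totals as the scaling and 3, with S100g added, under DESeq2 and when genes of low counts were kept, and ran from 1 to 3 when single libraries were left out. For estrus against proestrus it was 1, with 3 when genes of low counts were kept and 3 when those 2 stages were fitted alone, and 1 to 2 with single libraries left out. For metestrus against estrus, diestrus against metestrus and diestrus against estrus it was 1 and became 2 each when retained-intron transcripts or transcripts with long runs of A were left out, because Calb1 was added. For diestrus against metestrus it became 0 in the fit to those 2 stages alone. Proestrus against diestrus gave 2, with 3 when retained-intron transcripts or those with long runs of A were left out (Calb1 added), 3 when genes of low counts were kept and 3 in the fit to those 2 stages (S100g added, adjusted p = 0.00224 and 0.00597), and 1 to 3 with single libraries left out. Metestrus against proestrus gave 0, with 2 under DESeq2, 2 under no filter and 0 to 2 with single libraries left out. The cause of these differences was not tested. The 26 calls among the other calcium handling genes became 17 without proestrus replicate 2 and 32 without metestrus replicate 5, the lowest and highest with 1 library left out. Calb1 without retained-intron transcripts reversed in metestrus against proestrus when metestrus replicate 6 was also left out (log2 fold change -0.078 in place of 0.81, edgeR adjusted p = 0.892). The 115 recomputed Trpv6 fold changes kept their direction and all but 1 their side of the threshold. The main-fit fold changes that the report does not give, recomputed 576 times under the alternatives, changed sign 47 times. The 8 recomputed values with a call were all for Calb1, without retained-intron transcripts or without those with long runs of A. Those without retained-intron transcripts are the Calb1 calls given above. Atp2b1, Atp2b4 and Atp2a2 were called in no contrast under any alternative.

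Replicate numbers 3, 4 and 5 occur in both estrus and diestrus. Same-numbered samples had correlations of deviations from the stage means of -0.043, 0.013 and -0.017. These values showed no pairing, but so few pairs cannot decide whether the numbers link samples. Number 3 also occurs in proestrus and number 5 in metestrus, and those overlaps were not checked. With the replicate number as a block, 1 of the 7 genes was called between diestrus and estrus, as without it.

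With 3 uteri per stage and at most 2200563 counts per library, a gene that was not called is not shown to be alike between stages. Trpv6 and Mcub in diestrus, Vdr in proestrus and Calml3 rest on few or no counts. Transcript assignment of 3' tags was the authors' and was not checked against reads.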
